A study of Mus musculus with 4 samples.

Results

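Natural killer (NK) cells of tumour-injected mice were compared between the genotype labelled Irf4-/- and wild type (WT) by bulk RNA sequencing, with 1 library for each group. Of 35275 genes in the deposited tables, 9685 had a mean of at least 5 CPM (read counts scaled to the size of the library) over the 2 injected libraries, and the comparison covers all of them. Cells of B16-F10, a melanoma line from mouse, had been injected into a vein of both groups, and NK cells were taken from the spleen 20 days later, enriched with a kit and sorted as CD3-negative, NK1.1-positive cells. WT mice were C57BL/6. For the Irf4-/- mice the labels give neither the strain background nor the deleted part of the gene, and for no group the number of animals pooled. The study has 4 libraries, the other two being WT and Irf4-/- mice without injection, sorted the same way, called the uninjected pair here. The injected and the uninjected pair share no library.

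IRF4 is a transcription factor of the interferon regulatory factor family. It binds DNA weakly alone and usually acts with partners such as PU.1, BATF and JUN, and it is best known for steering the activation, expansion and differentiation of B and T lymphocytes. NK cells are innate lymphocytes that kill infected or transformed cells with perforin and granzymes and release cytokines such as interferon gamma. Their maturation in the spleen is followed by integrins, chemokine receptors and inhibitory receptors on the cell surface.

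Total counts were 18640811 in the WT injected library and 18639455 in the library labelled Irf4-/- injected, so that 3 counts, the limit that a count of 0 allows, corresponded to 0.161 CPM in either. Every difference below compares 2 libraries, not 2 groups of animals, and no test across animals was possible. The log2 ratio is that of the library labelled Irf4-/- over WT, with a prior count of 2, and the 95% interval in brackets is exact (Clopper-Pearson) and covers counting error only. Reads copied by PCR are not independent molecules, so even counting error may be understated. In bulk RNA, fewer cells of a type and less RNA per cell cannot be told apart.

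The WT injected library stood apart from the other three. Over 7184 genes with at least 20 CPM on average, the SD of the log2 difference was 0.283 to 0.316 in the pairs that included it and 0.180 to 0.245 in the pairs that did not. Ribosomal protein genes held 6.51% of its counts, against 4.73% to 5.26% in the others. It also had the fewest genes with a count, at 17678 against 17969 to 18684. For this reason the values of all 4 libraries are given for the main genes, and values of the uninjected pair, which does not use the WT injected library, are given beside most of them.

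Irf4 itself (ENSMUSG00000021356, chr13:30749226-30766976 in GRCm38, plus strand) had 57 counts in WT injected and 236 in the library labelled Irf4-/- injected. These were 3.07 and 12.7 CPM, against 4.42 and 11.7 CPM in the WT and Irf4-/- uninjected libraries. Both libraries labelled Irf4-/- were thus above both WT libraries. The injected pair gave 2.01 (1.62 to 2.49) as log2 ratio and the uninjected pair 1.39 (1.04 to 1.78). A count over the whole gene does not show which part was transcribed, so it does not check the label, and Irf4-/- injected and Irf4-/- uninjected below stand for the libraries so labelled. B cells and plasma cells, which also transcribe Irf4, were followed by 7 and 4 markers. Summed over the 7 B cell markers the level was 27.4 CPM in WT injected and 47.7 CPM in the library labelled Irf4-/- injected, and in the uninjected pair 63.9 and 65.7 CPM. Summed plasma cell markers stood at 3.34 and 1.02 CPM in the injected pair and at 3.52 and 5.31 CPM in the uninjected pair. In the injected pair Jchain had 50 and 2 counts and Sdc1 8 and 3, with Tnfrsf17 at 0 in both. Mzb1 went the other way, at 4 and 14 counts, so the list did not differ as one. The part of these cells in the Irf4 level was not tested.

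The sorted cells carried NK markers at high levels in both injected libraries. Ncr1, which encodes the activating receptor NKp46, stood at 1086 and 1464 CPM in WT and Irf4-/- injected, and Eomes, a transcription factor of conventional NK cells, at 688 and 692 CPM. By counting interval 6 of the 10 NK markers were higher in the library labelled Irf4-/- and 3 lower. Those lower were Klrb1c at 1416 and 1203 CPM, Klrk1 at 1624 and 1385 CPM and Klrd1 at 1025 and 861 CPM. Of 8 T cell markers only Cd3d, Cd3e and Cd3g, 3 genes of the T cell receptor complex, reached the level minimum, at 5.28 to 18.9 CPM. The 8 summed to 43.8 and 46.4 CPM in the injected pair and to 51.1 and 44.3 CPM in the uninjected pair. Cd6 had 44 and 8 counts in the injected pair, while Cd3d was slightly higher, so the list did not differ as one. Cd4, Cd8a, Cd8b1 and Cd5 had intervals that included 0. Of 6 melanoma markers Mlana, Tyr, Tyrp1, Dct and Sox10 had 0 counts in both libraries, and Pmel had 57 and 66 counts in the injected and 78 and 49 in the uninjected pair. Erythroid markers differed between the libraries, and the 7 summed to 19.1 CPM in WT injected and 109 CPM in the library labelled Irf4-/-, led by the globin genes Hbb-bs at 7.91 and 50.9 CPM and Hba-a1 at 6.73 and 39.7 CPM. The erythroid factor gene Klf1 had 18 and 4 counts, so the list did not differ as one. In the uninjected pair the erythroid sum was 38.3 and 45.02 CPM. Summed macrophage markers were 71.3 and 61.4 CPM in the injected pair and 33.3 and 51.3 CPM in the uninjected pair. Of the 7 measured in the injected pair, 4 were lower, the complement genes C1qa, C1qb and C1qc among them. Lyz2, at 4.79 and 8.22 CPM, was higher, so this list did not differ as one either.

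Most genes differed little between the 2 injected libraries. The median log2 ratio of the 9685 genes was 0.00, the 5th and 95th percentiles were -0.47 and 0.54, and 92.9% lay within 1.5-fold. The library labelled Irf4-/- was at least 2-fold higher, with an interval above 0, for 110 genes (1.14%), and at least 2-fold lower, with an interval below 0, for 64 genes (0.661%). A 4-fold difference was reached by 24 of the higher and 8 of the lower genes. By counting error alone, whatever the size, the interval lay above 0 for 2690 genes (27.8%) and below 0 for 2622 genes (27.1%), and these shares are the background for the counts within gene lists. Intervals narrow as counts rise, so for lists of abundant genes this background is not matched for level. The share with a 2-fold difference depended on level, with 6.00% of genes between 5 and 10 CPM, 0.343% between 50 and 100 CPM and 1.05% above 500 CPM.

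**Figure D1:**
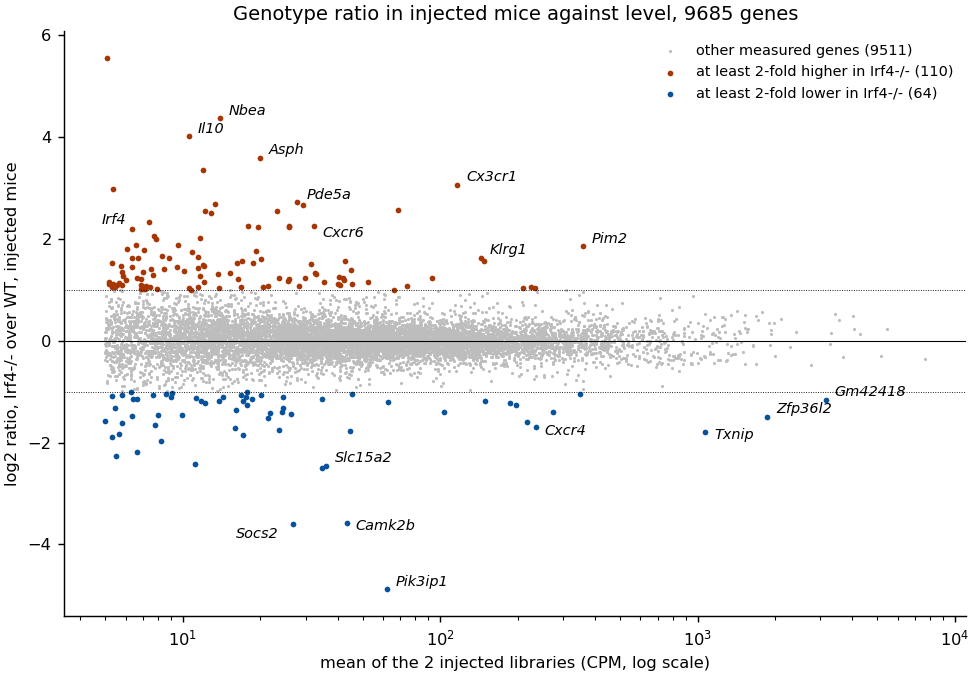
Log2 ratio of the library labelled Irf4-/- over WT in injected mice (y axis) against the mean of the 2 libraries in CPM (x axis, log scale) for 9685 genes. The 110 higher and 64 lower genes of the 2-fold rule lie beyond the dotted lines, with Nbea, Il10 and Cx3cr1 at the top and Pik3ip1, Socs2 and Camk2b at the bottom.

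Genes higher and genes lower differed in how far the uninjected pair shared them. Of the 110 higher genes, 96 were on the same side in the uninjected pair with an interval that excluded 0, 48 of them by at least 2-fold, and 0 lay on the opposite side. Of the 64 lower genes, 30 were on the same side, 6 of them by at least 2-fold, 26 had an interval that included 0 and 8 lay on the opposite side. Over all 9659 genes measured in the uninjected pair, the interval lay above 0 for 1459 and below 0 for 2161. By the 2-fold rule 67 of them were higher and 10 lower, so the background was unequal for the 2 directions. The median log2 ratio of the higher genes was 1.37 in the injected and 0.86 in the uninjected pair, and that of the lower genes -1.34 and -0.22. The WT uninjected library was within 1.5-fold of the library labelled Irf4-/- injected for 40 of the 64 lower genes and within 1.5-fold of WT injected for 12. For the higher genes these numbers were 26 and 61 of 110. The matching shares over all measured genes were not counted. Both libraries labelled Irf4-/- lay beyond both WT libraries for 99 of the 110 higher and 37 of the 64 lower genes. As these genes were chosen from the injected pair, their order within it was fixed by that choice. A ratio nearer to 0 in another pair also follows from it in part, and the difference between the pairs was not tested.

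**Figure D2:**
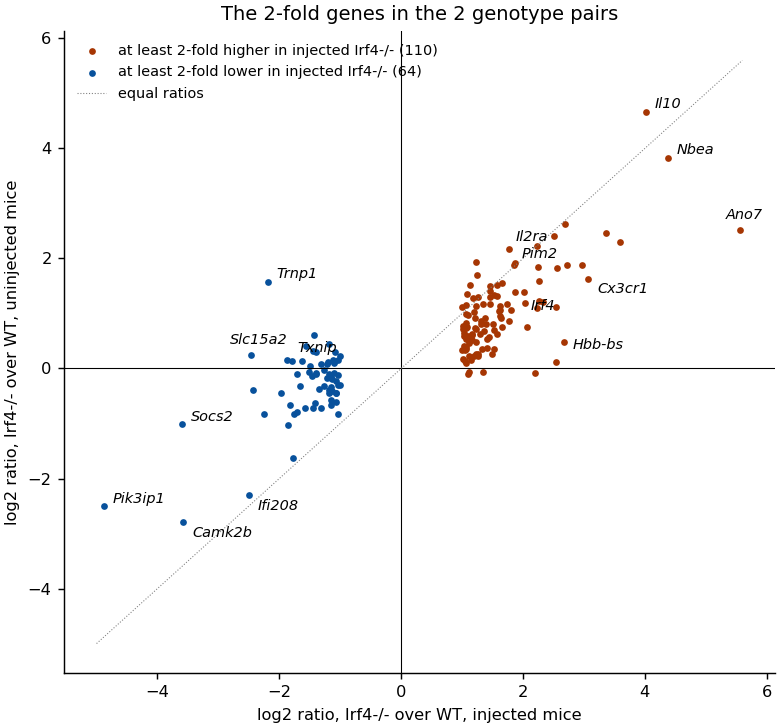
Log2 ratio of Irf4-/- over WT in uninjected mice (y axis) against that in injected mice (x axis) for the genes at least 2-fold apart in injected mice, 1 point per gene, with the dotted line marking equal ratios. The 110 higher genes had a median of 0.86 on the y axis and the 64 lower genes a median of -0.22, with Slc15a2, Txnip and Trnp1 above 0 there.

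Promoter sequences of 7 genes of MHC class I presentation and of the p200 cluster of interferon-inducible DNA sensors are shown, because genes with the same interferon response letters stood on both sides of 0. The letters searched were AANNGAAA, the core of the interferon-stimulated response element, on either strand, where N is any base. They are in capitals, in a stretch of 100 bases that surrounds the match nearest to the gene start and lies before it, read 5′ to 3′ on the strand of the gene. The bases and gene starts are those of RefSeq in GRCm38.p6, whose starts can differ from those of GENCODE: H2-K1 at chr17:34000384-34000483 (minus strand), H2-Q7 at chr17:35438996-35439095 (plus), H2-Q4 at chr17:35379418-35379517 (plus), H2-Q6 at chr17:35424652-35424751 (plus), B2m at chr2:122147504-122147603 (plus), Ifi211 at chr1:173913047-173913146 (minus) and Ifi208 at chr1:173673563-173673662 (plus).
H2-K1: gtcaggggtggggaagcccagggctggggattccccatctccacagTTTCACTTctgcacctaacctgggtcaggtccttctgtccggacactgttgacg
H2-Q7: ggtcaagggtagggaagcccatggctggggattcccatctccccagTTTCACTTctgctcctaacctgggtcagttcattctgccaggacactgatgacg
H2-Q4: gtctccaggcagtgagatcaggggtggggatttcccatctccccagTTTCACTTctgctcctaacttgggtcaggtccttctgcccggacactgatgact
H2-Q6: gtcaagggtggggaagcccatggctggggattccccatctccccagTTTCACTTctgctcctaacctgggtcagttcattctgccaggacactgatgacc
B2m: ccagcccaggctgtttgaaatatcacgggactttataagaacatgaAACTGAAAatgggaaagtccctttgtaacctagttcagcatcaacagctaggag
Ifi211: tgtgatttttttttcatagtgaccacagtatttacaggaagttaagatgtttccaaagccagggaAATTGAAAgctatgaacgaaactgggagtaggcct
Ifi208: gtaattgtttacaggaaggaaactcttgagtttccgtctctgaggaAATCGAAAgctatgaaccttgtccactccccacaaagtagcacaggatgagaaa
The classical class I gene H2-K1 and the nonclassical genes H2-Q7, H2-Q4 and H2-Q6 carried the identical 8 letters TTTCACTT, 90, 113, 153 and 152 bases before the RefSeq gene start. B2m, the light chain shared by class I molecules, carried AACTGAAA, 137 bases before the start. Ifi211 carried AATTGAAA 35 bases and Ifi208 AATCGAAA 56 bases before the start.

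Genes of MHC class I presentation, which load peptides and display them to T cells and to NK inhibitory receptors, were higher in the library labelled Irf4-/- for 17 of 19 measured members and lower for 2, by counting interval. Their median log2 ratio was 0.37, beside 0.00 for all measured genes, and 0.23 in the uninjected pair. Nlrc5, the transactivator of class I genes, stood at 309.8 CPM in WT injected and 506 CPM in the library labelled Irf4-/- injected, a log2 ratio of 0.71 (0.66 to 0.76), the largest of the list. Psme2, a subunit of the proteasome activator, was at 121 and 189 CPM, and B2m at 1798 and 2409 CPM, a ratio of 0.42 (uninjected 0.18). The 2 members that were lower in the library labelled Irf4-/- were H2-Q4, at 812 and 702 CPM (-0.21), and H2-Q6, at 1709 and 1588 CPM (-0.11). Their close relative H2-Q7 was higher, at 1446 and 2130.2 CPM (0.56). In the uninjected pair all 3 of these Q genes had ratios above 0, from 0.23 to 0.43. The H2-Q genes are near-identical copies, and how the authors' counting divided their reads is not given in the sources used here. Per length, the 2 most abundant transcripts of this list among those named here were H2-K1, at 2659.8 and 3145 FPKM (the deposited level scaled by gene length and library total) in WT and Irf4-/- injected, and B2m, at 2084 and 2798 FPKM.

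Interferon genes outside class I were mixed. Of 22 measured type I interferon-stimulated genes 11 were higher and 3 lower by counting interval, with a median of 0.10. Mx1, an antiviral GTPase, was among those lower, at 23.5 CPM in WT injected and 13.8 CPM in Irf4-/- injected (-0.76, uninjected -0.02). Among the interferon-inducible GTPases 7 of 11 were higher, led by Gbp3 at 39.5 and 71.3 CPM (0.85, uninjected 0.40) and Gbp2 at 30.6 and 53.8 CPM (0.81, uninjected 0.19), and 1 was lower, Gbp9 at 152 and 109.6 CPM (-0.47, uninjected 0.04). Of the interferon regulatory factors other than Irf4, Irf1 had a ratio of 0.47, Irf9 of 0.41 and Irf8 of 0.37, and in the uninjected pair 0.13, 0.20 and 0.39. In the p200 cluster 2 genes stood at opposite ends. Ifi211 was at 3.50 CPM in WT injected and 23.1 CPM in the library labelled Irf4-/- (2.69), and at 1.95 and 12.5 CPM uninjected. Ifi208 was at 59.2 and 10.4 CPM injected (-2.50) and 61.04 and 12.2 CPM uninjected. For both, the 2 WT libraries lay near each other and far from the 2 labelled Irf4-/-, but reads of these near-identical copies may be split between genes.

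The letters AANNGAAA were in the promoter, here 250 bases before to 50 bases after the gene start, of 10 of 16 class I presentation genes with a promoter in the table (62.5%), 10 of 15 type I interferon-stimulated genes (66.7%), 7 of 7 interferon-inducible GTPases and 7 of 9 p200 genes (77.8%), against 18.1% of 7659 measured genes and 24.2% of all 27025 promoters. Among the genes at least 2-fold higher the share was 18.7% (14 of 75 with a promoter) and among those at least 2-fold lower 14.6% (6 of 41). The composite letters GGAANNGAA, for an ETS factor beside an interferon regulatory factor, were in 5.33% of the higher, 2.44% of the lower and 7.26% of all measured genes. TGANTCA, the letters of AP-1, was in 6.67%, 4.88% and 4.39%. GGAANNGAA and AANNGAAA can overlap in the same bases, and a match describes letters, not a binding site. The 2-fold genes had a median length of 2862 bp (higher) and 3127.5 bp (lower), against 3179 bp over all measured genes.

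The largest ratios on the higher side belonged to genes that were low in both WT libraries. Nbea, which encodes a scaffold of vesicle trafficking, had 1.18 CPM in WT injected, 26.7 CPM in the library labelled Irf4-/- injected, 0.714 CPM in WT uninjected and 11.6 CPM in Irf4-/- uninjected. Il10, an anti-inflammatory cytokine, followed the same order, with 1.13, 19.9, 0.190 and 7.49 CPM, and its log2 ratio was 4.02 (3.51 to 4.85) in the injected and 4.67 (3.91 to 7.20) in the uninjected pair. Asph, an aspartate hydroxylase of the endoplasmic reticulum, had 2.96, 36.95, 3.09 and 15.7 CPM. In each of these 3 genes both libraries labelled Irf4-/- lay above both WT libraries. The same held for 99 of the 110 higher genes. Among them was Pde5a, a phosphodiesterase that degrades cyclic GMP, at 7.27 and 48.5 CPM injected and 7.33 and 27.2 CPM uninjected. Within the injected pair this order was set by the choice of genes, and its share over all measured genes was not counted. Nbea, Il10, Asph, Ly6a, Ano7, Ttn and Sema6d reached the minimum of 5 CPM only through the library labelled Irf4-/- injected. So did Irf4, Ifi211 and Tnf, among others. On the lower side Pik3ip1, Socs2, Maml3, Card14, Pygl and Hist1h1e, among others, reached it only through WT injected. Ano7, of the anoctamin family, had the largest ratio at 5.56 (4.67 to 9.60), but from 2 and 187 counts, so its size is poorly bounded. Titin, Ttn, a giant protein of muscle, was at 2.05 and 22.02 CPM, and the semaphorin gene Sema6d at 3.77 and 21.97 CPM. Gadd45g, which encodes a stress-induced activator of MAP kinase signalling, was among the more abundant, at 19.8 and 117 CPM injected and 21.2 and 75.7 CPM uninjected. Ly6a, the gene of the stem cell antigen Sca-1, stood at 1.13 and 9.61 CPM injected and 1.57 and 6.06 CPM uninjected, again with both WT libraries low.

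**Figure D3:**
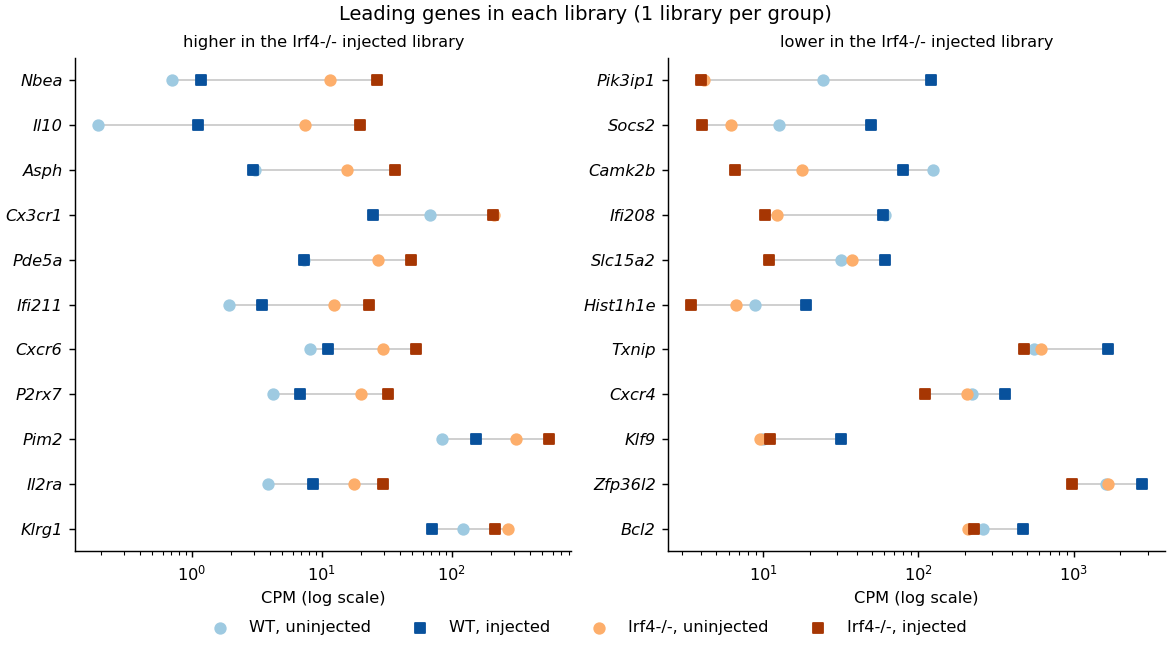
Level in CPM (x axis, log scale) of 11 genes higher (left) and 11 lower (right) in the library labelled Irf4-/- injected, 1 point for each of the 4 libraries, with no error bar since each group has 1 library. For Nbea, Il10 and Pim2 both libraries labelled Irf4-/- lie to the right of both WT libraries, whereas for Txnip and Klf9 the WT injected library lies alone on the right.

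Late maturation genes were higher in the library labelled Irf4-/- for 12 of 14 members and lower for 2, with a median log2 ratio of 0.51 in the injected and 0.18 in the uninjected pair. Cx3cr1, the fractalkine receptor that marks the most mature splenic NK cells, stood at 24.7 CPM in WT injected and 208 CPM in the library labelled Irf4-/-, and at 68.6 and 213 CPM uninjected. The 2 libraries labelled Irf4-/- were nearly equal, and it was the WT injected library that lay below the WT uninjected one. Klrg1, an inhibitory receptor of terminally mature NK cells, had the same order, with 70.2 and 218 CPM injected and 122 and 269.6 CPM uninjected. Itgam, which encodes CD11b, was at 515 and 917 CPM (0.83, uninjected 0.50), and Cma1, a mast cell type chymase also transcribed by mature NK cells, at 90.1 and 169.8 CPM (0.91, uninjected 0.80). Tbx21, which encodes the maturation factor T-BET, had 337 and 546 CPM injected (0.69) but 509 and 483 CPM uninjected (-0.08). S1pr5, the egress receptor controlled by T-BET, likewise had 0.54 injected and -0.03 uninjected. Against the direction of the list Prdm1, which encodes the repressor BLIMP1, was lower, at 129.9 and 86.4 CPM (-0.59, uninjected 0.23).

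Genes of type 1 innate lymphoid cells and tissue residency were higher in 12 of 16 and lower in 0, 7 of them by at least 2-fold. Their median was 0.30 in the injected and 0.57 in the uninjected pair. Cxcr6, a chemokine receptor of liver-resident lymphocytes, had 11.1 CPM in WT injected, 53.3 CPM in the library labelled Irf4-/- injected and 8.18 and 29.6 CPM in the uninjected pair. P2rx7, an ATP-gated channel, stood at 6.84 and 32.5 CPM injected and 4.23 and 20.2 CPM uninjected, with ratios of 2.23 and 2.22. Zfp683, the residency factor HOBIT, was at 9.04 and 18.6 CPM (1.03, uninjected 0.59), and Itga1, which encodes CD49a, at 6.14 and 16.8 CPM (1.44, uninjected 0.57). Tnfsf10, the death ligand TRAIL, had 32.4 and 72.6 CPM (1.16, uninjected 0.52). Eomes, low or absent in type 1 innate lymphoid cells, was within counting error, at a ratio of 0.01 (-0.03 to 0.04), so markers of both programmes were present in the same libraries. Integrins and adhesion genes, Itga1 among them, were higher in 15 of 21, with a median of 0.23 (uninjected 0.09), including Itgax, which encodes CD11c, at 679.7 and 1248 CPM (0.88, uninjected 0.30).

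Genes of the interleukin 2 and STAT5 axis parted. Il2ra, the high-affinity interleukin 2 receptor chain, had 8.67 CPM in WT injected and 29.8 CPM in the library labelled Irf4-/-, a ratio of 1.77 (1.52 to 2.04), with 3.85 and 17.9 CPM uninjected. Pim2, a survival kinase, was the most highly expressed gene by CPM among those at least 3-fold higher, at 155 and 561 CPM injected and 84.3 and 311 CPM uninjected, with ratios of 1.85 and 1.88. On the other side stood the feedback inhibitor Socs2, with 49.8 CPM in WT injected and 4.03 CPM in the library labelled Irf4-/- (-3.59, -3.99 to -3.29), and 12.8 and 6.24 CPM uninjected. Cish, another feedback inhibitor, was at 10.7 and 5.53 CPM (-0.93, uninjected -0.47). Over the whole list 6 of 17 members were higher and 7 lower, with a median of -0.07. Genes of cell death control went both ways, with 7 of 16 lower and 6 higher. Those lower included both the survival gene Bcl2, at 471 and 228 CPM (-1.04), and 3 death-promoting relatives: Bmf at 36.6 and 10.7 CPM (-1.76, uninjected -0.83), Bbc3 at 131 and 70.5 CPM (-0.89, uninjected -0.25) and Bcl2l11, which encodes BIM, at 311 and 195 CPM (-0.68). For Bcl2, Bbc3 and Bcl2l11 the WT uninjected library, at 259, 70.7 and 154 CPM, was nearer to the libraries labelled Irf4-/- than to WT injected.

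Pik3ip1, an inhibitor of phosphoinositide 3-kinase, was the gene furthest on the lower side. It had 2233 counts (120.2 CPM) in WT injected and 74 counts (3.97 CPM) in the library labelled Irf4-/- injected, a log2 ratio of -4.88 (-5.27 to -4.58), and 24.2 and 4.18 CPM in the uninjected pair. The 2 libraries labelled Irf4-/- were at the same low level, and the 2 WT libraries were above them and differed from each other. Camk2b, the beta chain of a kinase that calcium and calmodulin switch on, had 80.05 and 6.61 CPM injected (-3.58) and 123 and 17.7 CPM uninjected. Slc15a2, a transporter of dipeptides and bacterial muropeptides, was low in the library labelled Irf4-/- injected alone, with 10.96 CPM there against 60.8 CPM in WT injected and 31.6 and 37.3 CPM in the uninjected pair. Rab27b, a GTPase of vesicle secretion, had 27.02 and 7.41 CPM injected and 22.1 and 10.9 CPM uninjected, and Pygl, a glycogen phosphorylase, 8.88, 2.42, 7.56 and 4.75 CPM. For both of these genes the WT libraries were the 2 highest. Maml3, a coactivator of Notch signalling, and Card14, an activator of NF-kappa B, were instead high in WT injected alone, at 13.2 and 9.15 CPM there, 3.28 and 1.83 CPM in the library labelled Irf4-/- injected, and 5.42 and 2.85 CPM in WT uninjected. Genes of the PI3K to FOXO axis, Pik3ip1 included, were lower in 15 and higher in 7 of 25, with a median of -0.13.

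Pik3ip1 and Camk2b lie within 3 Mb of each other near the start of chromosome 11, where 2-fold genes were dense. Between 3125904 and 6125904 on chromosome 11 (GRCm38), 7 of 45 measured genes were at least 2-fold apart, 4 higher and 3 lower, while the densest stretch of that length elsewhere held 5 of 46. The median absolute log2 ratio of the 45 genes was 0.19, so the other genes there differed little. The 4 higher genes were Slc35e4, at 8.56 and 25.6 CPM injected and 7.47 and 21.6 CPM uninjected, Dusp18 (ratio 1.63), Sfi1 (1.03) and Gm11400 (1.38). The third lower gene was Emid1, at 69.1 and 20.2 CPM injected and 75.8 and 24.6 CPM uninjected. For all 7 genes both pairs had ratios on the same side. The stretch was chosen with earlier results of these data known. Around Irf4 on chromosome 13, 1 of 12 measured genes within 3 Mb on either side was at least 2-fold apart, which was Irf4. By chromosome, the share of 2-fold genes ran from 0 of 330 on chromosome 14 to 3.93% (14 of 356) on chromosome 13.

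Cell cycle genes were higher in the library labelled Irf4-/-. All 26 measured genes of mitosis and G2/M had intervals above 0, with a median log2 ratio of 0.71 and a range from 0.34 to 1.06, and of 25 replication and S phase genes 18 were higher and 2 lower, with a median of 0.35. Mki67, a marker of cycling cells, stood at 105 CPM in WT injected and 201 CPM in the library labelled Irf4-/- injected (0.94), and at 197 and 263 CPM uninjected. Top2a, a topoisomerase of dividing cells, had 66.2, 130.2, 139 and 185 CPM in the same order, and Rrm2, a ribonucleotide reductase subunit, 17.7, 41.8, 41.9 and 58.8 CPM. In all 3 genes WT injected was the lowest library, and the library labelled Irf4-/- injected was near WT uninjected. Summed over the mitosis list the level was 403 CPM in WT injected, 707 CPM in Irf4-/- injected, 723 CPM in WT uninjected and 977 CPM in Irf4-/- uninjected. With the WT uninjected library in place of WT injected, which mixes genotype with injection, the median of the mitosis list was -0.01 and that of the S phase list -0.24. The uninjected pair gave 0.45 and -0.00. Of 67 replication-dependent histone genes only 5 were measured, 3 of them lower, including the linker histone Hist1h1e at 18.9 and 3.44 CPM (-2.43, uninjected -0.39) and Hist1h1c at 34.99 and 14.02 CPM (-1.31, uninjected 0.08). These transcripts have no long poly(A) tail, so a messenger RNA library holds them only in part.

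The 20 measured genes of cytotoxic granules each differed by less than 1.5-fold. Of 20 cytotoxic granule genes 11 were higher and 5 lower, with a median of 0.16 (uninjected 0.06) and a range from -0.46 to 0.53. Perforin, Prf1, had 878 and 1266 CPM (0.53, uninjected 0.15) and granzyme A, Gzma, 3051 and 4072 CPM (0.42, uninjected 0.32), whereas granzyme B, Gzmb, had 449 and 355 CPM (-0.34, uninjected 0.21), and the exocytosis GTPase Rab27a 318 and 232 CPM (-0.46), with 142 CPM in WT uninjected. Gzmb and Rab27a therefore stood opposite to Prf1 and Gzma. Among secreted cytokines and chemokines 9 of 12 were higher and 2 lower. Besides Il10, Tnf had 4.09 and 11.01 CPM (1.40, uninjected 0.37) and Xcl1, a chemokine that attracts cross-presenting dendritic cells, 83.7 and 155 CPM (0.89, uninjected 0.02). Ifng, the interferon gamma gene, differed less, at 40.2 and 49.04 CPM (0.29), with 62.2 and 61.9 CPM uninjected, and Ccl5, an abundant chemokine of NK cells, was at 2373 and 2188 CPM (-0.12, uninjected 0.06).

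Receptors at the NK cell surface went both ways. Slamf7, a self-ligand receptor that activates NK cells, had 55.7 and 131 CPM (1.23, uninjected 0.27), while its relative Slamf6 had 47.9 and 21.5 CPM (-1.15, uninjected -0.67). Of 19 activating receptors and adaptors 9 were higher and 8 lower, and of 14 inhibitory receptors 6 and 6. Among checkpoint receptors Lag3 was higher, at 13.2 and 27.7 CPM (1.07), with 9.85 and 19.6 CPM uninjected. Tigit was lower, at 89.96 and 50.9 CPM (-0.82), with 31.8 and 27.7 CPM uninjected, so both injected libraries were above both uninjected ones. Ifngr1, a chain of the interferon gamma receptor, was at 945 and 512 CPM (-0.88) and uninjected at 534 and 581 CPM, with WT injected alone high. Tnfrsf25, the death receptor DR3, was at 8.29 and 24.2 CPM (1.53, uninjected 0.70).

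**Figure D4:**
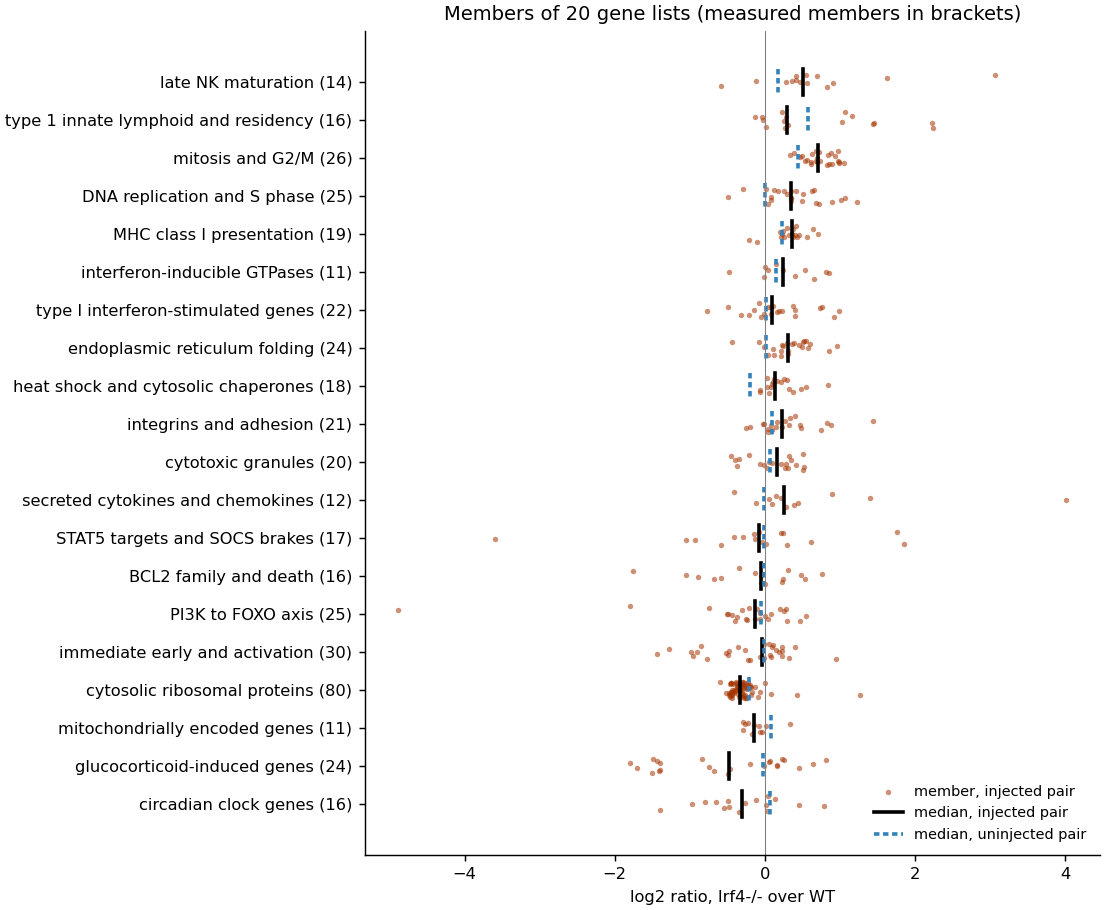
Log2 ratio of Irf4-/- over WT in injected mice (x axis) for the measured members of 20 gene lists (rows), 1 point per gene, with the median in the injected pair as a black bar and in the uninjected pair as a blue dashed bar. The mitosis list lies wholly above 0 with medians of 0.71 and 0.45, and the glucocorticoid-induced genes have medians of -0.48 and -0.02.

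Genes of folding in the endoplasmic reticulum were higher in 20 of 24 and lower in 1, with a median of 0.31 in the injected and 0.02 in the uninjected pair. Calr, the chaperone calreticulin, had 243 CPM in WT injected, 475 CPM in the library labelled Irf4-/- injected and 451 and 407 CPM uninjected. Hspa5, which encodes BiP, had 298, 434, 468 and 431 CPM in the same order. In both genes WT injected was the lowest of the 4 libraries. Cytosolic heat shock and chaperone genes had a median of 0.14 in the injected pair, with 9 of 18 higher and 0 lower. The uninjected median was -0.20, with 0 of 20 higher and 15 lower. Of all 9659 genes measured in the uninjected pair, 1459 were higher and 2161 lower. Hsph1, a chaperone of the HSP110 family, was at 60.3 and 88.3 CPM injected and at 277 and 205 CPM uninjected, so both injected libraries were far below both uninjected ones. Summed, the chaperone list held 3138 and 3693 CPM injected and 6666 and 5591 CPM uninjected.

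Cytosolic ribosomal protein genes were lower in the library labelled Irf4-/- for 74 of 80, with a median of -0.33 in the injected and -0.20 in the uninjected pair. The 2 that were higher were Rps27l, a p53-responsive relative of Rps27, at 0.43 (uninjected 0.12), and Rps4l, annotated as a transcribed processed pseudogene, at 1.27 (uninjected 0.22). Summed they held 63835 CPM in WT injected, 50119 CPM in Irf4-/- injected, and 51549 and 45479.7 CPM in WT and Irf4-/- uninjected. Mitochondrially encoded genes were lower in 6 of 11 and higher in 0, with a median of -0.14. In the uninjected pair 0 of 10 were lower and 7 higher, with a median of 0.09. Nuclear oxidative phosphorylation genes were higher in 36 and lower in 9 of 75. In the uninjected pair they were higher in 14 and lower in 19 of 76. Gm42418, a noncoding RNA at the ribosomal RNA repeat on chromosome 17, was at 4352 CPM in WT injected and 1949.5 CPM in the library labelled Irf4-/- (-1.16), with 3056 and 2064 CPM uninjected. Reads of ribosomal RNA are commonly assigned to it. The part of such reads in the other ratios was not tested. Leaving the ribosomal protein, mitochondrial, haemoglobin and immunoglobulin genes out of the scaling gave the same 110 higher and 64 lower of the 9685 genes. Gm42418 was not among the genes left out, so that scaling does not bear on its reads.

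A group put together after the values were seen holds genes that glucocorticoid hormones induce in lymphocytes. Of 24 measured members 14 were lower in the library labelled Irf4-/- and 6 higher, 8 of them lower by at least 2-fold, with a median of -0.48 in the injected and -0.02 in the uninjected pair. Since the list was chosen on these libraries, its count is a description and no evidence of a direction. Txnip, a regulator of glucose uptake and redox state, had 1663 CPM in WT injected, 479 CPM in the library labelled Irf4-/- injected and 558 and 612 CPM in the uninjected pair. Tsc22d3, the glucocorticoid-induced leucine zipper, had 397, 151, 197 and 242 CPM in that order, and the transcription factor gene Klf9 31.7, 11.1, 9.99 and 9.61 CPM. In each of these 3 the WT injected library was the highest. WT injected was also the highest library, and the library labelled Irf4-/- injected the lowest, for the messenger RNA decay factor Zfp36l2, at 2754 CPM in WT injected against 978, 1624 and 1674 CPM, and for the bone marrow homing receptor Cxcr4, at 360.1 CPM against 111, 220.0 and 205 CPM. Fkbp5, a chaperone of the glucocorticoid receptor and one of its best known targets, did not follow them. It was at 241 and 211 CPM in the 2 injected libraries and at 116 and 109 CPM in the uninjected pair, so both injected libraries were high.

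Clock genes, also listed after the values were seen, were lower in 9 and higher in 2 of 16. Per1, a clock repressor that glucocorticoids also induce, was at 150.5 CPM in WT injected, 56.9 CPM in the library labelled Irf4-/- injected and 57.4 and 53.3 CPM uninjected. Tef, an output factor of the clock, had 173, 88.6, 92.7 and 81.4 CPM, and the core activator Arntl 30.5, 31.3, 25.5 and 31.6 CPM, which showed no difference beyond counting error in the injected pair (-0.13 to 0.21). The hour at which spleens were taken is not given in the sources used here. Early response genes were lower in 14 and higher in 9 of 30. Tnfaip3, which encodes the NF-kappa B inhibitor A20, had 279.6 and 116 CPM injected and 121 and 118 CPM uninjected, with WT injected again alone high, whereas the phosphatase gene Dusp1 was lowest in the library labelled Irf4-/- injected, at 14.2 CPM against 38.6, 25.3 and 38.6 CPM in WT injected, WT uninjected and Irf4-/- uninjected.

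**Figure D5:**
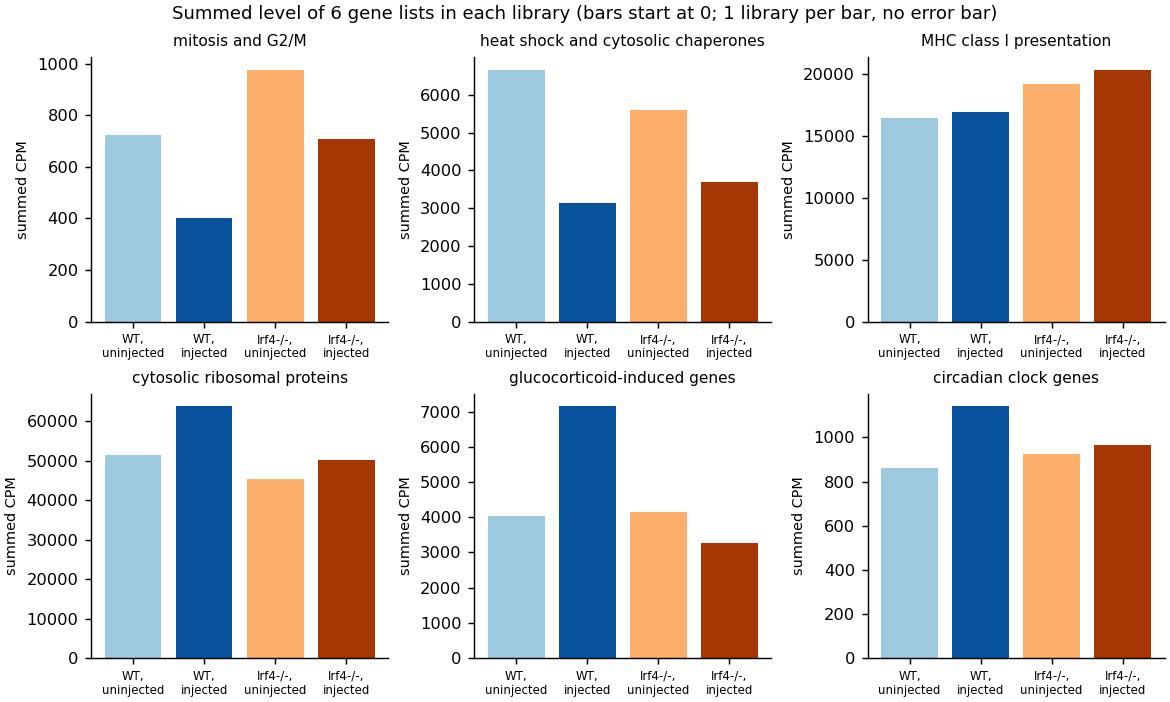
Summed CPM (y axis, from 0) of all members of 6 gene lists in each of the 4 libraries, 1 bar per library and no error bar. WT injected is the lowest bar for mitosis and for chaperones and the highest for ribosomal proteins, glucocorticoid-induced genes and clock genes, while class I presentation is higher in both libraries labelled Irf4-/-.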

How the data were processed

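RNA of splenic NK cells was made into messenger RNA libraries with a SMARTer kit, per the labels' protocols. The deposited tables hold read counts per gene and FPKM for 4 libraries. TopHat, edgeR and the mm10 build are named in the submitters' processing notes, without versions. How reads were counted, with which annotation and strand setting, is not given in the sources used here, so reads of overlapping genes cannot be told apart. Counts, as the authors deposited them, were scaled to CPM by total count and TMM factors over the 4 libraries (edgeR 4.0.16, R 4.3.3), and log2 ratios used a prior count of 2. The deposited FPKM served for levels per length. With 1 library per group no test was made. A gene counted as different at 2-fold with an exact 95% counting interval (scipy 1.17.1) beyond 0. The code was tested on simulated counts. Positions and gene types came from GENCODE M21 (GRCm38), promoters from RefSeq.

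Genes were named by rule: Irf4, the 20 largest ratios in each direction among protein-coding genes, up to 5 members with the largest ratios in each list, and cell markers. Other genes named were chosen for their role or after their values were seen. Members, lists and the stretch of chromosome 11 were chosen with earlier results of these data known. The glucocorticoid and clock lists, and the alternative with WT uninjected in place of WT injected, were added after the values were seen.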

Additional observations from a re-analysis of the deposited data

Results flagged for a closer look

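The genotype ratio had opposite signs in the injected and the uninjected pair, by at least 1.5-fold in each and with intervals that excluded 0, for 5 genes named here. Without the 1.5-fold limit 20 of 115 did, Txnip, Slc15a2, Zfp36l2, Prdm1, Ifngr1, Calr and Hsph1 among them. Some of the 115 were chosen after their values were seen. The share of all measured genes with opposite signs was not counted, so these counts describe the named genes only. With 1 library per group the difference between the pairs was not tested. Dusp1, a phosphatase that switches off MAP kinases, had a log2 ratio of -1.44 in the injected and 0.61 in the uninjected pair. Fosb, an AP-1 subunit, had -0.98 and 0.96, from 7.75, 3.87, 9.80 and 19.2 CPM in WT injected, Irf4-/- injected, WT uninjected and Irf4-/- uninjected. Rgs1, a regulator of G protein signalling, had -0.84 and 0.60, from 68.2, 37.9, 37.7 and 57.4 CPM in the same order. These 3 are early response genes, and in each the library labelled Irf4-/- injected was below the Irf4-/- uninjected one. Acvr2a, an activin receptor, had -0.61 and 0.78, from 20.7, 13.6, 10.7 and 18.5 CPM. Trnp1, which encodes a nuclear protein of proliferating progenitors, had -2.19 and 1.58, the second from 2 and 8 counts only. The median of the heat shock and cytosolic chaperone genes also had opposite signs, and was 0.14 in the injected and -0.20 in the uninjected pair.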

How the results depend on the processing

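On the same 2 libraries, other scalings, prior counts and the FPKM gave 103 to 114 genes at least 2-fold higher and 60 to 68 lower, some by shifting which genes reach the level minimum, and counting intervals above 0 for 2055 to 3039 genes and below 0 for 2145 to 2948 once the level minimum was varied as well. With a minimum of 1 CPM 244 were higher and 203 lower, with 20 CPM 38 and 28, at 1.5-fold 395 and 288, and at 3-fold 38 and 20. Of 448 list medians 446 moved by at most 0.2 on the log2 scale, and 0 of those at least 0.2 from 0 changed sign. Of 1111 ratios of named genes 1107 stayed within the counting interval, and 0 of those whose interval excluded 0 changed sign. No paired analysis was possible because each group has 1 library.

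Comparisons that used other libraries changed more. The uninjected pair had 67 genes higher and 10 lower, and, among medians at least 0.2 from 0, the sign was the other one for secreted cytokines (-0.00832), S phase genes (-0.00335), histones (0.0486) and clock genes (0.0655). With WT uninjected in place of WT injected, an alternative chosen after seeing the data that mixes genotype with injection, 111 genes were higher and 27 lower. Over the 9685 genes of the main comparison these were 125 and 23, of which 64 were among the 110 higher and 12 among the 64 lower. Medians had the other sign for secreted cytokines (-0.00841), S phase (-0.24), mitosis (-0.0106) and interferon-inducible GTPases (-0.00292). So did 16 of 108 named genes, counting those whose interval excluded 0: H2-Q4 (0.53), H2-Q6 (0.17), Klf9 (0.15), S1pr5 (-0.0720), Bcl2l11 (0.34), Top2a (-0.10), Rrm2 (-0.00286), Rab27a (0.71), Ifng (-0.34), Tigit (0.68), Hspa5 (-0.11), Hsph1 (-1.65), Rps27l (-0.13), Fkbp5 (0.87), Rgs1 (0.00720) and Acvr2a (0.34). The cause was not tested. Depth limits the genes near 5 CPM, whose counting intervals are the widest.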

Other observations

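Of 16 measured Notch pathway genes 5 were higher and 6 lower in the library labelled Irf4-/- injected. The Notch ligand Dll1 was at 8.61 CPM in WT injected, 21.9 CPM in Irf4-/- injected and 7.85 and 17.8 CPM in the uninjected pair, so it followed genotype in both pairs. Of 16 TGF-beta receptor and SMAD genes 2 were higher and 9 lower, with a median of -0.12, and the ligand gene Tgfb3 was at 13.6 and 8.22 CPM injected and 13.3 and 9.68 CPM uninjected. Plcg2, a phospholipase that links activating receptors to calcium, had 162 and 313 CPM injected (0.95) and 241 and 269 CPM uninjected (0.16). Within 26 genes of calcium signalling 7 were higher and 12 lower.

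Sterol and fatty acid synthesis genes were higher in 10 and lower in 2 of 17, with a median of 0.12. Cyp51, an enzyme of the cholesterol pathway, was at 6.14 and 11.2 CPM injected and 8.99 and 13.98 CPM uninjected, with WT injected the lowest. Gimap7, a GTPase of lymphocyte survival, had 61.3 and 109.8 CPM injected and 71.6 and 109.6 CPM uninjected, whereas the 8 measured GIMAP genes as a group had 4 higher and 4 lower. Dsp, which encodes the desmosome protein desmoplakin, was at 6.14 and 29.7 CPM injected and 6.71 and 20.4 CPM uninjected.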
